A study of Mus musculus with 18 samples.

Results

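Transcript levels in the ileum of mice, the distal segment of the small intestine, were compared between animals after weaning and animals that were still suckling. From the average over postnatal days 24 and 32 the average over days 4, 7, 9 and 11 was subtracted, with each age given equal weight. The comparison covered every gene that could be read: 18193 genes had a probe set with a gene symbol of its own, and 8621 of them were tested because the gene's brightest probe set reached a log2 level of 6 on at least 3 of the 18 arrays. The other 9572 genes, too dim by that rule, were not tested. Of the genes tested, 420 met that filter through arrays after weaning and not on those before it alone, and 1005 the other way round, so that a difference was built into their selection; no array of the opposite stage reached the level in 323 and 645 of these. Genes of this kind are described below by their levels and differences, without a p.

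All animals were C57BL/6 mice, an inbred laboratory strain, of no stated treatment or engineered allele. Pieces of ileum holding all layers of the wall were taken from 3 individual mice at each of the 6 ages, which gave 12 arrays before and 6 arrays after weaning. The titles of day 7 replicate 3 and day 9 replicate 2 carry the same mouse number, although 1 of these arrays had the male and 1 the female pattern of sex-linked transcripts, so that what the number stands for is not settled. The day of weaning is not given in the sources used here, and its place between day 11 and day 24 is general knowledge of laboratory mice. Diet and age therefore change together between the groups and cannot be told apart, and in pieces of whole wall fewer cells of a type cannot be told apart from less RNA per cell.

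As background, the suckling ileum takes up milk macromolecules whole. Its enterocytes carry a network of apical endocytic tubules and a giant lysosome-like vacuole in which milk proteins, glycans and lipids are broken down inside the cell. At weaning these cells are replaced by enterocytes that digest food outside the cell, on enzymes of the brush border, and the transport of salts, bile acids and nutrients takes its adult form. Over the same weeks gut microbes, secreted antibodies and the antimicrobial products of Paneth and goblet cells become established.

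The stages differed across most of the genome that was read. By limma with Benjamini-Hochberg adjustment, called below an adjusted p of 0.05, 6283 of 8621 genes (72.9%) were called, 2675 higher (31%) and 3608 lower (41.9%) after weaning. A difference of at least 2-fold was reached by 649 higher genes (7.53%) and 994 lower genes (11.5%), and of at least 8-fold by 100 higher (1.16%) and 99 lower (1.15%). In 1330 higher genes (15.4%) and 1870 lower genes (21.7%) no array of the 6 after weaning overlapped any of the 12 before it. The median difference over all genes tested was -0.07 on the log2 scale, and the median size of a difference was 0.41 against a median standard error of 0.09. Errors of differences below are standard errors from this fit, with 6 arrays against 12. Age was a factor of 6 levels in it. These errors and the adjusted p therefore measure the spread between mice of the same age. The spread between the ages of a stage is left out of them. With age as a random block 2371 genes were called higher and 3288 lower.

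The very large differences leaned upward, while the moderate ones leaned downward. Between 1 and 2 on the log2 scale 730 genes were called lower and 435 higher, between 2 and 3 the counts were 165 and 114, between 3 and 5 they were 86 and 70, and from 5 upward they were 13 and 30. A level near the array medians of 3.88 to 3.97 cannot be separated from background in these values. The mean before weaning of 58 genes called higher and the mean after weaning of 47 genes called lower lay below the highest of these medians. The folds of such genes depend on the background correction, and for these a log2 difference is given in place of a fold. Means a little above that limit, such as 4.27 for Ada before weaning, are not in these counts. The folds given for Ada, Dpep1, Upp1 and genes like them may depend on the background correction too. Counts over gene lists are to be read against the shares of all genes, 31% higher and 41.9% lower.

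**Figure D1:**
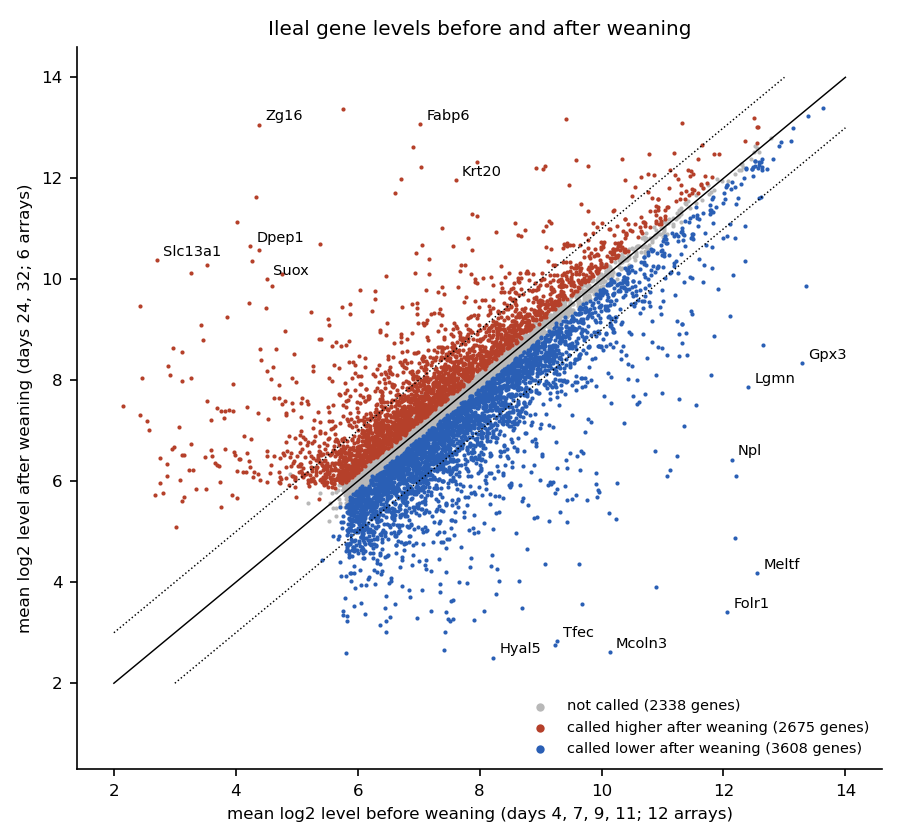
Mean log2 level of each of the 8621 genes tested on the 12 arrays before weaning (horizontal axis) against the 6 arrays after it (vertical axis). The solid line marks equal levels and the dotted lines a 2-fold difference; red points were called higher (2675 genes), blue points lower (3608), and named examples lie far from the line on either side.

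Some measured properties of the arrays moved with stage. Arrays correlated at 0.983 to 0.996 within an age and at 0.932 to 0.955 between the stages. The mean of the spiked hybridization controls was 8.74 to 9.62 before and 9.65 to 9.99 after weaning, that of the poly-A spike controls 3.53 to 4.51 and 4.98 to 6.37, and that of the 18S ribosomal RNA probe sets 4.93 to 8.19 and 7.01 to 10.8. By Xist and Eif2s3y, transcripts of the female inactive X and of the Y chromosome, 9 of 12 arrays before weaning and 1 of 6 after it had the female pattern. Neither the hybridization nor the poly-A controls overlapped between the stages, so what they reflect cannot be told apart from stage. Split at the widest gap in the hybridization controls, the lower group held 8 arrays before and 0 after weaning. A block for this group therefore cannot remove such a difference. With that block the counts of called genes were 2655 higher and 3061 lower. With the Xist level as a covariate they were 2252 and 3213, and on the 8 male-pattern arrays alone 1828 and 2761. All 4 ileal enterocyte markers were measured, with a mean level of 6.16 to 7.24 before and 10.3 to 10.8 after weaning, and 4 smooth muscle markers averaged 10.6 to 11.0 in both. The ileal markers rose unequally, by 1.04 in Slc51a, 3.01 in Slc51b, 5.34 in Slc10a2 and 6.04 in Fabp6. Their mean therefore does not measure how many enterocytes a piece held, which was not tested.

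Fcgrt and Dab2, genes of the endocytic entry route of the suckling enterocyte, fell by more than 3 log2 units. The share of their list that fell was near that of all genes. Its largest fall, in Folr1, was -8.65 on the log2 scale and also the largest fall of all genes tested. Of 25 tested genes of apical endocytosis 12 fell and 3 rose, 5 and 0 of them by at least 2-fold (median log2 difference -0.20). The share that fell was 48% against 41.9% of all genes, and the share called in either direction 60% against 72.9%. Falls of at least 2-fold made up 20% of the list, against 11.5% of all genes. Fcgrt, the neonatal Fc receptor that carries maternal IgG across the epithelium, had log2 levels of 11.33 to 12.20 before weaning (median 11.81) and of 7.84 to 8.38 after it (median 8.08). It fell 13-fold (log2 difference -3.70 ± 0.09, limma adjusted p = 6.78e-17), with no overlap between the stages. Dab2, a clathrin adaptor for cargo receptors, stood between 9.90 and 10.50 on the arrays before weaning (median 10.29) and between 5.62 and 6.39 on those after it (median 5.92). Its fall was 19.5-fold (log2 difference -4.29 ± 0.09). Against these, both parts of the ileal receptor for vitamin B12 bound to intrinsic factor fell only modestly: Amn went from 11.67 to 10.28 (log2 difference -1.39 ± 0.09) and Cubn from 10.76 to 10.01 (log2 difference -0.75 ± 0.15). Arrays of the stages overlapped in Cubn, which averaged 9.66 on day 24 and 10.37 on day 32. With day 32 alone after weaning the Cubn difference was -0.39 (limma adjusted p = 0.081).

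Behind the entry step, 38 of 68 tested sorting nexins, Vps and ESCRT genes fell and 14 rose, but only 4 falls and 0 rises reached 2-fold (median -0.30). Snx8, a sorting nexin of early endosomes, was the exception in size. Snx8 ranged from 9.02 to 9.87 (median 9.47) before weaning and from 4.40 to 5.89 (median 5.17) after it. It fell 19.0-fold (log2 difference -4.24 ± 0.17). Rab11fip5, an effector of Rab11 in endosome recycling, had log2 levels of 9.97 to 10.44 before weaning (median 10.20) and of 4.89 to 5.70 after it (median 5.27). Its fall of 31.5-fold (log2 difference -4.98 ± 0.08) left no overlap. Chmp1b and Chmp4c, ESCRT-III subunits that act in membrane scission, rose, with differences of 0.93 and 0.72.

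Genes of the lysosome fell in nearly all classes of protein. All 16 tested cathepsins and lysosomal peptidases were called, 14 lower and 2 higher (median -1.74); 18 of 22 glycosidases and sulfatases fell and 1 rose (median -1.73); 20 of 24 genes of lysosomal lipid handling and membrane fell and 2 rose (median -1.20). Falls of at least 2-fold were found in 13, 16 and 13 of these 16, 22 and 24 genes, while 11.5% of all genes tested fell that far. The proton pump that acidifies the lysosome, the vacuolar ATPase, had 14 of 16 tested subunit genes lower and 2 higher (median -0.98).

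Lgmn, the asparaginyl endopeptidase legumain, stood between 12.26 and 12.58 on the arrays before weaning (median 12.38) and between 7.10 and 8.62 on those after it (median 7.92). It fell 23.4-fold (log2 difference -4.55 ± 0.09, limma adjusted p = 8.56e-18), and day 32 stood above day 24 by 0.83 ± 0.15. Dpp7, a dipeptidyl peptidase of the lysosome, ranged from 9.60 to 10.13 (median 9.99) before weaning and from 5.45 to 6.33 (median 5.98) after it. The fall was 15.5-fold (log2 difference -3.96 ± 0.12, limma adjusted p = 1.51e-15), the stages lying more than 3 log2 units apart at their nearest arrays. Ctsa, the protective protein that stabilises lysosomal glycosidases, fell 7.85-fold, and Ctsd, the aspartic protease cathepsin D, 2.31-fold. The peptidases that rose were Ctse, an aspartic protease of endosomes (log2 difference 1.65 ± 0.31), and Ctsc, a dipeptidyl peptidase that activates serine proteases of immune cell granules (log2 difference 1.33 ± 0.10). Ctse overlapped between the stages, at 4.15 to 6.48 before and 5.61 to 8.08 after weaning.

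Among the glycosidases, Galc, which removes galactose from galactosylceramide, fell 12.8-fold from a mean of 8.21 to 4.53. Gusb, the beta-glucuronidase, fell 8.30-fold, Glb1, the lysosomal beta-galactosidase, 7.88-fold, and Hexa, a hexosaminidase subunit, 4.27-fold. Hyal2, a membrane-anchored hyaluronidase, was the member that rose (log2 difference 0.58 ± 0.07). In the lysosomal membrane, Slc17a5, the exporter of free sialic acid, had log2 levels of 11.21 to 11.50 before weaning (median 11.36) and of 6.81 to 7.42 after it (median 7.13). It fell 19.1-fold (log2 difference -4.25 ± 0.08, limma adjusted p = 1.86e-18). Cln3, a lysosomal membrane protein mutated in juvenile Batten disease, fell 7.63-fold, while Lamp1, an abundant membrane glycoprotein of lysosomes, fell 2.27-fold. The cation channels of the mucolipin family split, since Mcoln3 and Mcoln1 fell (log2 difference -7.52 ± 0.09 and log2 difference -1.76 ± 0.09) and Mcoln2 rose (log2 difference 1.42 ± 0.16). The sorting receptor Sort1 rose as well (log2 difference 1.19 ± 0.06). Of the proton pump, the V1 subunits Atp6v1b2 and Atp6v1h each differed by -1.52, and the rises were in Atp6v0a2 (log2 difference 0.95 ± 0.07) and Atp6v0e2 (log2 difference 0.72 ± 0.10), V0 subunits that have paralogues.

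Handling of free sialic acid, a sugar abundant in milk glycans, fell in 2 catabolic genes together with the exporter. Npl, the lyase that splits sialic acid, stood between 11.84 and 12.30 on the arrays before weaning (median 12.15) and between 4.60 and 8.59 on those after it (median 6.17). Days 24 and 32 were apart, at 8.13 and 4.73 (-3.39 ± 0.20 for day 32 minus day 24, adjusted p = 4.98e-09), and the mean fall was 52.2-fold (log2 difference -5.71 ± 0.12, limma adjusted p = 1.32e-17). Renbp, an epimerase of N-acetylglucosamine and N-acetylmannosamine, ranged from 10.70 to 11.24 (median 11.13) before weaning and from 5.52 to 6.40 (median 6.16) after it. It fell 31.2-fold (log2 difference -4.97 ± 0.10, limma adjusted p = 1.06e-17). The sialyltransferases that attach sialic acid to glycans are given with the glycan genes.

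The MiT transcription factors bind the CLEAR element in promoters of lysosomal genes in mammals. Of 3 tested members 2 fell, while Tfe3 differed by -0.02 (limma adjusted p = 0.842) and Mitf was too dim to be tested. Tfec had log2 levels of 9.01 to 9.53 before weaning (median 9.24) and of 2.43 to 3.26 after it (median 2.79). Its log2 difference was -6.43 ± 0.08, and its level after weaning lay below the array medians. Tfeb, the best known activator of lysosomal genes, fell 2.01-fold (log2 difference -1.01 ± 0.07) with ranges of 6.51 to 6.94 before and 5.59 to 6.07 after weaning.

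**Figure D2:**
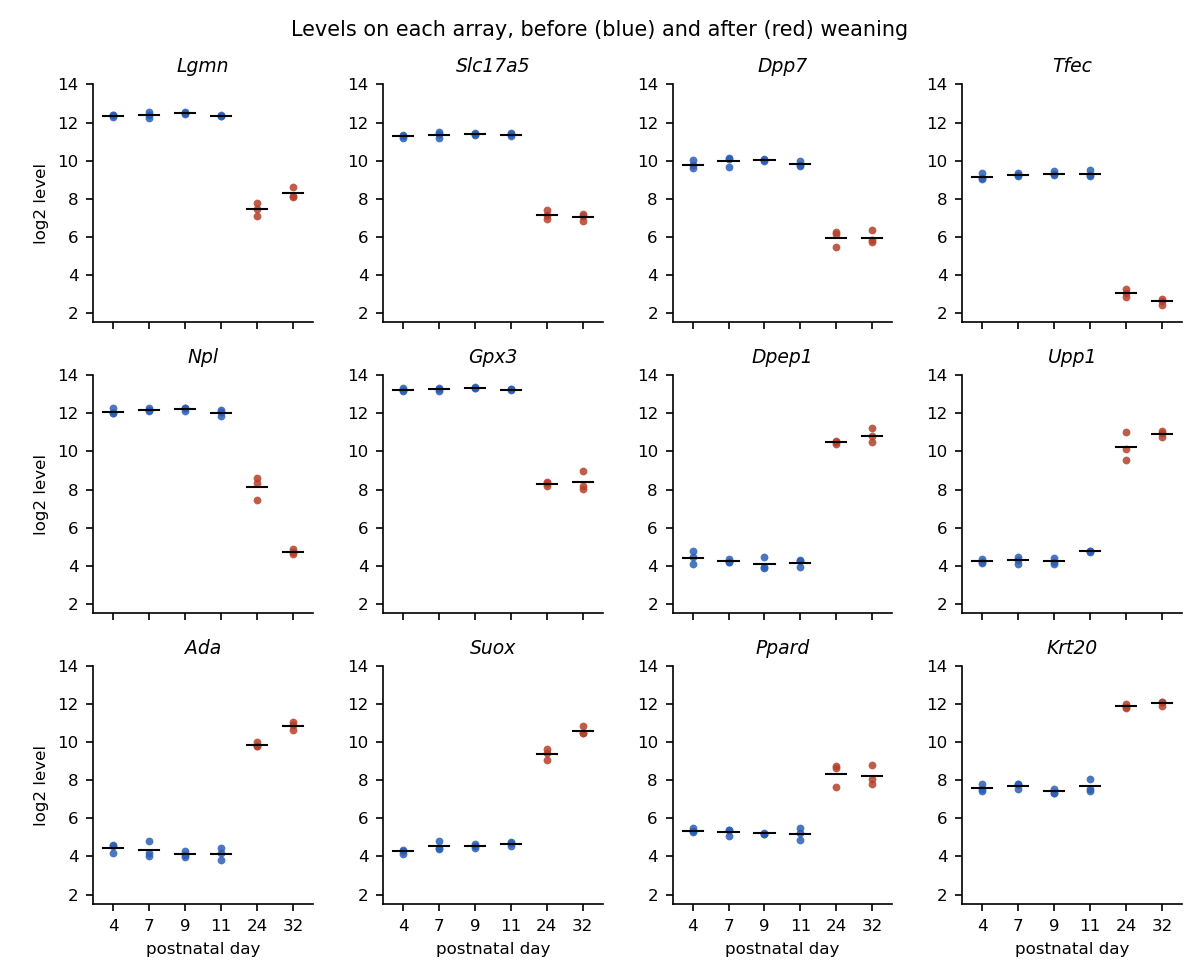
Log2 level on each of the 3 arrays of each age (points; blue before and red after weaning) with the mean of the age (bar) for 12 genes. Lgmn, Slc17a5, Dpp7, Tfec, Npl and Gpx3 are lower and Dpep1, Upp1, Ada, Suox, Ppard and Krt20 higher on all 6 arrays after weaning; in Npl day 32 lies below day 24.

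Promoter windows (250 bases before to 50 after a gene's start) were available for 7033 of the 8621 genes tested, from RefSeq on GRCm38.p6. The core of the CLEAR element, TCACGTGA, was searched on both strands; it contains the shorter E-box CACGTG. It occurred in windows of 2.49% of all genes tested, of 4.35% of those called at least 2-fold lower and of 0.595% of those called at least 2-fold higher. Of genes called at least 8-fold lower it occurred in 3 of 82 (3.66%), and of those called at least 8-fold higher in 1 of 76 (1.32%). Among the lysosomal and proton pump genes with a window it occurred in 11 of 63 (17.5%), namely Dpp7, Ctsa, Cln3, Gla, Mcoln1, Igf2r, Clcn7, Ctsd, Atp6v0d1, Atp6v1a and Atp6v0e, and all 11 were called lower, as were 56 of the 63. The E-box occurred in 12.4% of all genes tested and in 31.7% of these lysosomal genes. Lgmn, Slc17a5, Mcoln3 and Galc fell as far as or further than Ctsa and Cln3 without the CLEAR letters in their windows. The windows of Dpp7 (chr2:25356283-25356582, minus strand), of Gla, the alpha-galactosidase (chrX:134600956-134601255, minus strand), and of Mcoln1 (chr8:3500269-3500568, plus strand) are shown because they carry the match in genes that fell 15.5-fold, 4.77-fold and 3.39-fold. They run 5′ to 3′ along the gene, with the CLEAR core in capitals; its first base is at -74 in Dpp7, at -228 and -195 in Gla and at -46 in Mcoln1, counted from the gene's start.
Dpp7: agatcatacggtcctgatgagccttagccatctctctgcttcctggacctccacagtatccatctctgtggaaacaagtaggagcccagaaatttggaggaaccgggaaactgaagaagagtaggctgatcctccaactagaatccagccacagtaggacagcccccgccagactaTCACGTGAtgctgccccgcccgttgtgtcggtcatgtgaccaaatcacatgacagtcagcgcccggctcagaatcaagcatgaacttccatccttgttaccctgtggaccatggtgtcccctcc
Gla: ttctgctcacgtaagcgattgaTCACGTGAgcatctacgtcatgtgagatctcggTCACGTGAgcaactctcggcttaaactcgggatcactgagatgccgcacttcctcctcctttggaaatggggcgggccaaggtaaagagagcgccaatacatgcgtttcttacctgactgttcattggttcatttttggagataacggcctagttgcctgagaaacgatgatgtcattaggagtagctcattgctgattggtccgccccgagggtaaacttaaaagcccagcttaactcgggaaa
Mcoln1: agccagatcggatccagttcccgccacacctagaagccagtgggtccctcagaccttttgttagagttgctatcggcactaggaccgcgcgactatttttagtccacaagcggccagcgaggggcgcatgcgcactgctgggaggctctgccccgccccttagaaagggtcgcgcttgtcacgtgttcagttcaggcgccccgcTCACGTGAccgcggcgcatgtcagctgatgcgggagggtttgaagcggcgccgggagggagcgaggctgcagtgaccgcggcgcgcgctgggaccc

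Transcripts of most peptidases and peptide carriers of the cell surface rose. Of 17 tested brush border peptidases and peptide transporters 13 rose and 2 fell (median 1.20), and 9 rises reached 2-fold against 7.53% of all genes. Dpep1, a membrane dipeptidase, stood between 3.89 and 4.77 on the arrays before weaning (median 4.22) and between 10.37 and 11.21 on those after it (median 10.54). It rose 85.9-fold (log2 difference 6.42 ± 0.12). Mme, the endopeptidase neprilysin, ranged from 2.11 to 3.12 (median 2.39) before weaning and from 6.48 to 8.25 (median 7.41) after it. Its log2 difference was 4.87 ± 0.16, from a mean before weaning under the array medians. Xpnpep2, a membrane aminopeptidase that cuts before proline, rose 11.9-fold, Slc15a1, the carrier for di- and tripeptides, 7.55-fold, and Dpp4, which removes dipeptides ending in proline, 3.78-fold. Ace, the angiotensin-converting enzyme, also a brush border peptidase, went the other way from 8.92 to 7.77 (log2 difference -1.15 ± 0.09, limma adjusted p = 8.06e-10).

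Sugar genes moved in both directions, 9 higher and 10 lower of 21 tested (median -0.05). Rises were found in genes of entry and first use of dietary sugars, although Slc2a2 and Lct, given with the ages below, fell. Treh, the trehalase of the brush border, had log2 levels of 2.53 to 3.33 before weaning (median 2.89) and of 7.85 to 8.80 after it (median 8.31). The rise was 5.40 ± 0.12 on the log2 scale, from a mean before weaning under the array medians. Slc5a1, the sodium-glucose carrier, rose 3.53-fold, Slc2a5, the fructose carrier, 3.47-fold, and Khk, which phosphorylates fructose, 3.03-fold. Hk2, a hexokinase, stood between 5.53 and 5.96 on the arrays before weaning (median 5.73) and between 7.38 and 9.17 on those after it (median 8.95). Its rise was 7.77-fold (log2 difference 2.96 ± 0.18). Falls were found in genes of glucose production: Pck1, which makes phosphoenolpyruvate, 17.6-fold (log2 difference -4.13 ± 0.24), Fbp1, the fructose bisphosphatase, 16.6-fold (log2 difference -4.05 ± 0.11), and G6pc, the glucose-6-phosphatase, 8.07-fold (log2 difference -3.01 ± 0.13). All 3 were lower on every array after weaning than on any before it.

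Slc10a2, the sodium-bile acid carrier of the brush border, ranged from 2.00 to 2.28 (median 2.14) before weaning and from 6.14 to 8.31 (median 7.71) after it. It rose by 5.34 ± 0.12 on the log2 scale from a level under the array medians. The fatty acid binding proteins of the enterocyte parted: Fabp6, the bile acid binder, rose by 6.04, Fabp1 fell with a difference of -4.89, and Fabp2, the intestinal form, differed by only 0.47. Letters of binding sites for factors of the intestinal epithelium were searched in the same windows on both strands. The HNF4 core CAAAGTCCA occurred in 0.654% of all genes tested and in 4 of 76 (5.26%) of those called at least 8-fold higher (Treh, Cyp2c65, Cyp3a11 and B3gnt3). The CDX core TTTATNG occurred in 8.32% and in 17 of 76 (22.4%), and the TATA box TATAAA in 9.13% and in 20 of 76 (26.3%). The last 2 overlap, because a TATA box read on the other strand gives TTTATA; both occurred together in 3.68% of all genes tested and in 14.5% of the genes called at least 8-fold higher. GATA letters, AGATAA, occurred in 7.31% and 9.21%, and PRDM1 letters, GAAAGTG, in 5.43% and 6.58%. Among 82 genes called at least 8-fold lower the HNF4 core occurred in 1.22%, the CDX core in 13.4% and the TATA box in 15.9%. In the same 82 genes GATA letters occurred in 12.2% and PRDM1 letters in 3.66%. The contrasts were smaller at the 2-fold limit, where the HNF4 core occurred in 1.59% of genes called higher and 1.06% of those called lower. At that limit the CDX core occurred in 11.1% and 9.1%, and the TATA box in 14.9% and 10.0%. The windows of Treh (chr9:44672983-44673282, plus strand) with the HNF4 core in capitals, first base at -71, and of Slc10a2 (chr8:5105238-5105537, minus strand) with the CDX core in capitals, first bases at -175, -62 and -52, are shown because both genes rose by more than 5 log2 units from a background level.
Treh: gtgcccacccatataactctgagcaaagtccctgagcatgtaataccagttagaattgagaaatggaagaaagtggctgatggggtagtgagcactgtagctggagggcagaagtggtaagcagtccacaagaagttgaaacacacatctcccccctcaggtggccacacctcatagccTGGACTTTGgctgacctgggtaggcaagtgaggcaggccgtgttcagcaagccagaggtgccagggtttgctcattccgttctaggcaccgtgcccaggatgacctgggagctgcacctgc
Slc10a2: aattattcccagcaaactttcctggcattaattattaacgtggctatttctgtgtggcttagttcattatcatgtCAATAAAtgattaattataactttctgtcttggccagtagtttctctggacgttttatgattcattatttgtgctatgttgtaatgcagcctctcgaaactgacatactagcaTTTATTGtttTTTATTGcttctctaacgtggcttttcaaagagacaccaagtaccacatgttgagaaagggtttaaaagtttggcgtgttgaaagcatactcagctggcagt

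**Figure D3:**
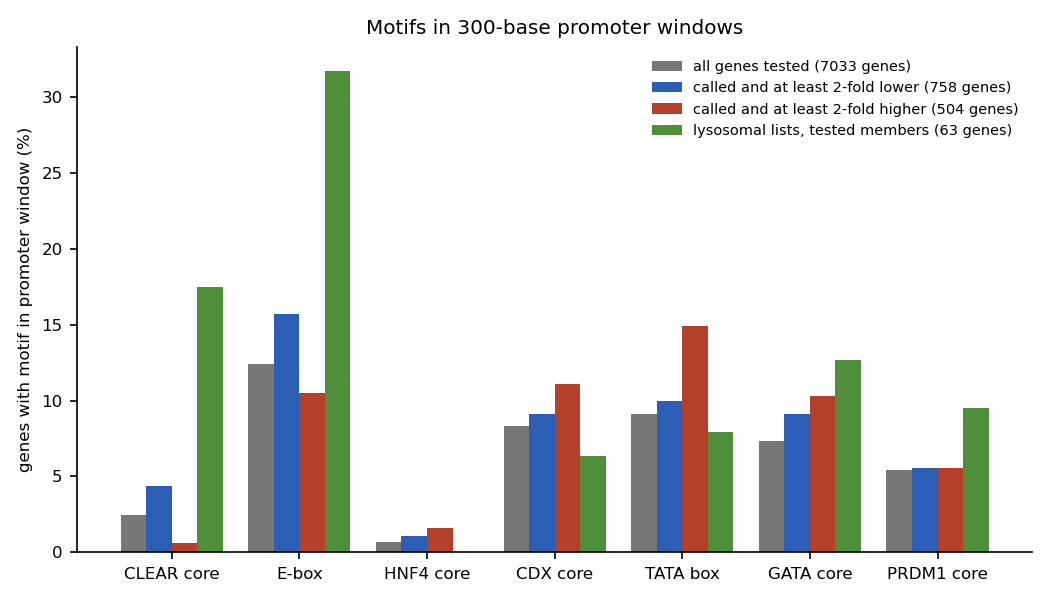
Share of genes (vertical axis, percent) whose 300-base promoter window holds each motif, for all genes tested with a window (grey, 7033), those called at least 2-fold lower (blue, 758) or higher (red, 504) and the lysosomal and proton pump lists (green, 63). The CLEAR core stands at 17.5% in the lysosomal lists against 2.49% of all genes. The TATA box stands at 14.9% in the genes called higher and 10.0% in those called lower, against 9.13% of all genes.

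Amino acid carriers were divided, 12 higher and 11 lower of 26 tested (median 0.11). Slc1a1, the glutamate carrier, rose 8.68-fold, and Slc6a20a, the carrier of proline and other imino acids, 5.06-fold. Slc7a15, a member of the light-chain carrier family, had log2 levels of 2.55 to 3.24 before weaning (median 3.04) and of 5.73 to 7.71 after it (median 6.64). The log2 difference was 3.68 ± 0.11 against a background-level mean before weaning. Slc6a14, a carrier of neutral and basic amino acids, stood between 3.03 and 4.22 on the arrays before weaning (median 3.56) and between 3.44 and 9.91 on those after it (median 7.42). The arrays of the stages overlapped although its mean log2 difference was 3.62 ± 0.36, since day 24 averaged 5.52 and day 32 8.91. Slc38a7, a lysosomal glutamine carrier, and Slc38a6 of the same family fell by 2.26 and 3.08 on the log2 scale.

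In the small intestine of suckling mammals arginine is made from glutamine and proline through citrulline, and 13 of 23 tested genes of arginine, citrulline and polyamine metabolism fell while 7 rose (median -0.23). Arg2, the mitochondrial arginase that consumes arginine, ranged from 2.29 to 2.66 (median 2.52) before weaning and from 7.59 to 9.16 (median 7.90) after it. It rose by 5.59 ± 0.13 on the log2 scale, from a mean before weaning under the array medians. Synthetic steps that fell were Asl, which releases arginine, 5.83-fold (log2 difference -2.54 ± 0.09), Aldh18a1, the first enzyme from glutamate, 4.63-fold (log2 difference -2.21 ± 0.06), and Cps1, which supplies carbamoyl phosphate, 2.30-fold (log2 difference -1.20 ± 0.08). Gatm, which uses arginine for creatine, fell to a mean under the array medians (log2 difference -3.91 ± 0.13). Gpt, the alanine transaminase, rose 7.42-fold (log2 difference 2.89 ± 0.13).

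Genes of purine, pyrimidine and phosphate ester breakdown moved both ways, with 10 rises and 9 falls in 22 tested (median 0.02). Upp1, uridine phosphorylase, had log2 levels of 4.10 to 4.79 before weaning (median 4.32) and of 9.57 to 11.06 after it (median 10.86). It rose 73.8-fold (log2 difference 6.21 ± 0.14). Ada, adenosine deaminase, stood between 3.83 and 4.81 on the arrays before weaning (median 4.20) and between 9.78 and 11.05 on those after it (median 10.33). Its rise was 68.7-fold (log2 difference 6.10 ± 0.12), and Cda, cytidine deaminase, rose 6.80-fold. Cda averaged 4.76 before weaning, 8.52 on day 24 and 6.53 on day 32. Members of the list that fell were Enpp3, a nucleotide pyrophosphatase (log2 difference -3.75 ± 0.13), Slc29a3, a lysosomal nucleoside carrier (log2 difference -1.37 ± 0.08), and Alpi, the intestinal alkaline phosphatase (log2 difference -1.19 ± 0.08).

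Of 40 tested genes of iron, zinc and copper handling 20 fell and 8 rose (median -0.19), and the 50% that fell compare with 41.9% of all genes. Slc11a2, the apical importer of ferrous iron, ranged from 8.91 to 9.63 (median 9.21) before weaning and from 5.30 to 6.15 (median 5.83) after it. It fell 11.0-fold (log2 difference -3.46 ± 0.08, limma adjusted p = 3.18e-17), and Slc40a1, the basolateral iron exporter ferroportin, fell 4.21-fold (log2 difference -2.07 ± 0.26). The zinc importers parted, Slc39a8 falling (log2 difference -3.21 ± 0.10) and Slc39a4 rising (log2 difference 1.24 ± 0.12). Of 27 genes of vitamin uptake and binding 17 fell and 6 rose (median -0.58), a share of 63% lower. Slc23a1, the vitamin C carrier, fell 9.45-fold, and the retinoid genes Lrat and Rbp2 4.46-fold and 2.69-fold. Slc52a3, the riboflavin carrier, rose 5.91-fold, and Vdr, the vitamin D receptor, 4.42-fold (log2 difference 2.14 ± 0.09).

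Transport of salt, bicarbonate, sulfate and water rose in 23 of 37 tested genes and fell in 9, with 15 rises of at least 2-fold (median 0.57). Slc9a2, a sodium-proton exchanger, had log2 levels of 4.11 to 4.77 before weaning (median 4.39) and of 8.22 to 8.54 after it (median 8.41). It rose 15.9-fold (log2 difference 3.99 ± 0.07). Car4, a membrane-bound carbonic anhydrase, stood between 2.62 and 3.40 on the arrays before weaning (median 2.95) and between 6.51 and 9.54 on those after it (median 8.99). Car4 rose by 5.66 ± 0.26 on the log2 scale, from a mean before weaning under the array medians. Slc13a2, the citrate carrier, rose 13.3-fold, Clcn2, a chloride channel, 6.86-fold, and Slc26a6, an exchanger of chloride for bicarbonate and oxalate, 6.49-fold. Suox, the mitochondrial sulfite oxidase that makes sulfate, ranged from 4.13 to 4.79 (median 4.49) before weaning and from 9.07 to 10.87 (median 10.06) after it. It rose 44.9-fold (log2 difference 5.49 ± 0.09), beside the sulfate importer Slc13a1 (log2 difference 7.67 ± 0.09, from a background level). Falling members were Prkg2, a cGMP-dependent kinase of ion secretion (log2 difference -2.35 ± 0.07), Slc20a1, a phosphate carrier (log2 difference -1.79 ± 0.08), and Scnn1a, a subunit of the epithelial sodium channel (log2 difference -1.68 ± 0.11).

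Among 45 transcription factors of enterocytes and intestinal lineages 28 rose and 12 fell (median 0.48). Ppard, a nuclear receptor for fatty acids, had log2 levels of 4.87 to 5.48 before weaning (median 5.26) and of 7.65 to 8.81 after it (median 8.34). It rose 8.08-fold (log2 difference 3.01 ± 0.16). Klf5 and Klf4, factors of the crypt and of the differentiated epithelium, rose 2.96-fold and 2.34-fold, Atoh1, the switch to secretory lineages, 4.57-fold, and Tcf7l2, a Wnt effector, 4.51-fold. Among regional factors Hnf4a and Hnf4g differed by 0.44 and 0.86 and Cdx1 by 0.74. Cdx2 differed by -0.30 (limma adjusted p = 0.0188), with 9.10 on day 24 and 8.25 on day 32; with day 24 alone after weaning the difference was 0.12, and with age as a random block the adjusted p was 0.123. Prdm1, a repressor that holds the neonatal state of the mouse enterocyte, averaged 4.94 on day 24 and 6.13 on day 32 after 8.80 before weaning (log2 difference -3.26 ± 0.07). Creb3l3, a factor of lipid metabolism, fell by 1.96 on the log2 scale, with 9.09 on day 24 and 7.22 on day 32.

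Of the enzymes that cap glycans 9 rose and 6 fell of 18 tested (median 0.25). In the St3gal family, which adds sialic acid in alpha-2,3 linkage, 4 of 5 tested members fell and 1 rose. St3gal1, which caps O-glycans with sialic acid, stood between 9.83 and 10.45 on the arrays before weaning (median 10.10) and between 4.95 and 6.23 on those after it (median 5.20). It fell 27.1-fold (log2 difference -4.76 ± 0.12), and its relatives St3gal3, St3gal5 and St3gal6 fell 6.03-fold, 4.07-fold and 1.64-fold, whereas St3gal4 rose 2.43-fold. St6gal1, which adds sialic acid in alpha-2,6 linkage, averaged 6.51 before weaning, 5.66 on day 24 and 7.07 on day 32, and the stage difference of -0.15 did not pass the test (limma adjusted p = 0.339); with day 32 alone after weaning it was 0.56 (limma adjusted p = 0.00993). Fut4, a fucosyltransferase, rose 5.18-fold, Fut8, the core fucosyltransferase of N-glycans, 3.33-fold, and Gmds, the first enzyme of GDP-fucose synthesis, 4.50-fold.

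Of 39 tested genes of mucin-type initiation, branching and elongation 25 rose and 6 fell (median 0.41), 12 and 0 of them by 2-fold. B3gnt3, which extends core 1 O-glycans, ranged from 3.99 to 5.07 (median 4.66) before weaning and from 7.22 to 8.29 (median 7.67) after it. It rose 8.10-fold (log2 difference 3.02 ± 0.12). B3gnt7, an enzyme of poly-lactosamine chains, rose by 3.43 ± 0.30 on the log2 scale from a background level, and B4galnt2, which makes the Sda antigen of the gut, rose 6.36-fold. Gcnt1, a branching enzyme, rose by 2.53 ± 0.20 on the log2 scale, also from a background level, with a mean of 4.46 on day 24 and 6.90 on day 32 and arrays that overlapped those before weaning in range (2.84 to 3.43 before and 3.30 to 7.36 after weaning). The falling members were small, led by B3galnt1 (log2 difference -0.78 ± 0.09) and Galnt11 (log2 difference -0.68 ± 0.13).

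Cell architecture shifted within families. Krt20, the keratin of mature enterocytes and goblet cells, had log2 levels of 7.35 to 8.07 before weaning (median 7.54) and of 11.79 to 12.12 after it (median 11.97). It rose 20.6-fold (log2 difference 4.36 ± 0.09, limma adjusted p = 1.32e-17), and Krt19 rose 3.25-fold, whereas Krt18 fell (log2 difference -0.80 ± 0.07). Keratins and desmosomal genes had 10 rises and 1 fall in 15 tested (median 0.76). In the claudins, which set what tight junctions let pass, Cldn15 and Cldn3 rose 4.14-fold and 3.86-fold. Cldn8 fell 9.41-fold (8.40 to 9.59 before and 5.29 to 6.67 after weaning), Cldn4 2.61-fold and Cldn5, the claudin of vessels, 2.93-fold. The tight junction list split into 12 rises and 10 falls of 26. Structural genes of the brush border rose in 17 of 30 and fell in 8, with no fall of 2-fold. Tmigd1, an adhesion protein of enterocytes, stood between 8.63 and 9.55 on the arrays before weaning (median 9.12) and between 11.98 and 12.52 on those after it (median 12.25). Its rise was 9.00-fold (log2 difference 3.17 ± 0.06, limma adjusted p = 5.45e-18). Cobl, an actin nucleator, rose 5.47-fold, Myo1a, the myosin that links microvillus actin to membrane, 3.90-fold, and Vil1, villin, 1.95-fold.

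**Figure D4:**
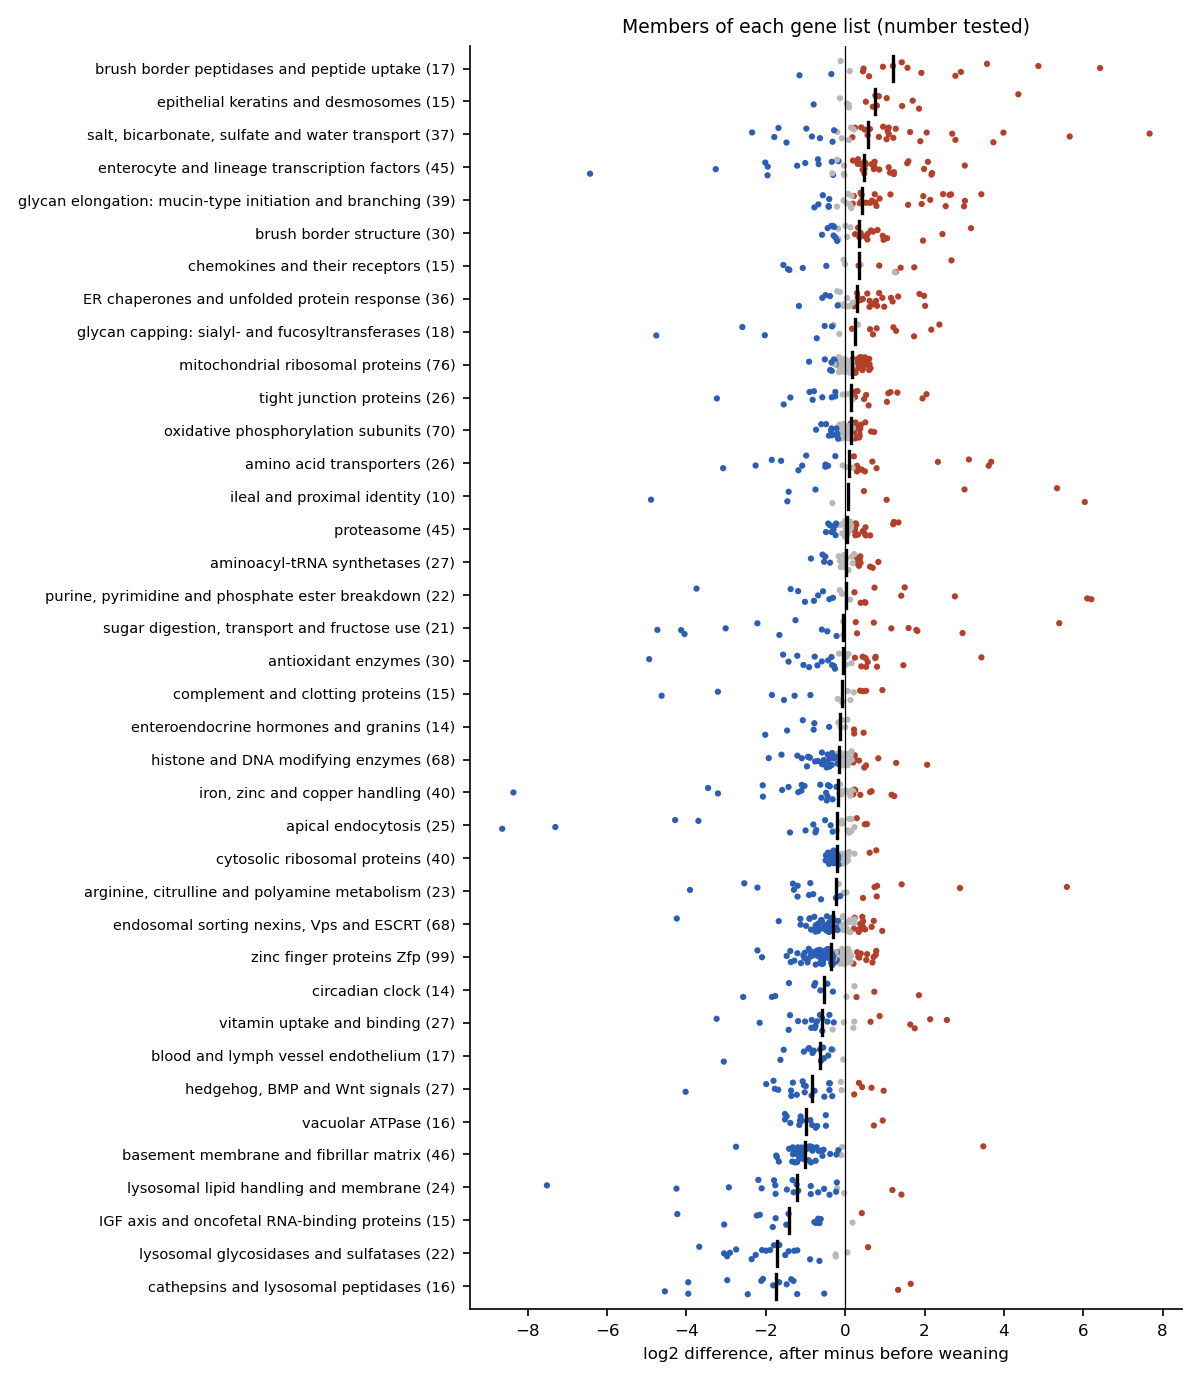
Log2 difference, after minus before weaning (horizontal axis), of every tested member of each gene list (rows, with the number tested), jittered vertically. Red members were called higher, blue lower and grey neither; black bars are list medians, which run from -1.74 in the lysosomal peptidases to 1.20 in the brush border peptidases.

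Genes of the extracellular matrix fell. Of 46 tested basement membrane and fibrillar matrix genes 43 fell and 1 rose (median -1.02), 23 falls reaching 2-fold. Fbn2, a fibrillin of developing tissue, ranged from 7.06 to 7.82 (median 7.49) before weaning and from 4.26 to 4.98 (median 4.73) after it. It fell 6.74-fold (log2 difference -2.75 ± 0.10). Col1a1 and Col4a1, chains of fibrillar and basement membrane collagen, fell 2.27-fold and 2.36-fold. Lamb3, a laminin chain made by epithelium, was the member that rose (log2 difference 3.48 ± 0.14), from 3.26 to 5.99 on day 24 and 7.50 on day 32. The smooth muscle markers Acta2, Cnn1, Myh11 and Tagln differed by -0.35, 0.50, 0.01 and -0.03 on the log2 scale.

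The growth factor axis fell in 13 of 15 tested genes and rose in 1 (median -1.43). Igf1r, the receptor for insulin-like growth factors, fell 4.45-fold (7.99 to 9.56 before and 6.11 to 6.63 after weaning), and Ghr, the growth hormone receptor, 4.68-fold (10.35 to 10.68 before and 8.10 to 8.39 after weaning). Igf2, the fetal growth factor, fell by 4.23 on the log2 scale. Igf2bp3, an RNA-binding protein of fetal tissue, had log2 levels of 8.33 to 9.11 before weaning (median 8.82) and of 3.81 to 7.13 after it (median 5.96). Day 24 averaged 7.06 and day 32 4.27, between which it fell again (-2.79 ± 0.24, adjusted p = 5.38e-07). Of the hedgehog, BMP and Wnt signals 20 of 27 fell and 5 rose (median -0.85). The hedgehog ligand Ihh rose (log2 difference 0.66 ± 0.13) and its receptor and target Ptch1 fell (log2 difference -1.69 ± 0.08), as did the hedgehog-binding Hhip (log2 difference -1.99 ± 0.13). Among BMP ligands Bmp7 fell 16.3-fold, Bmp4 2.10-fold, and Bmp2 rose 1.96-fold.

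Of 17 tested endothelial genes 15 fell and 0 rose, 4 by 2-fold (median -0.64). Aplnr, the apelin receptor of growing vessels, stood between 9.47 and 9.90 on the arrays before weaning (median 9.63) and between 6.27 and 7.19 on those after it (median 6.54). It fell 8.34-fold (log2 difference -3.06 ± 0.09, limma adjusted p = 1.11e-15). Pecam1, the junction protein of endothelium, fell 3.10-fold, and Sox18, a factor of vessel development, 2.06-fold. Enteric neuron markers were lower too, 4 of 4 measured markers averaging 5.61 to 6.06 before and 4.49 to 4.97 after weaning.

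Immune signals changed member by member. Ccl28 and Ccl25, chemokines of mucosal epithelium that attract antibody-secreting and T cells, rose 6.41-fold (log2 difference 2.68 ± 0.10) and 2.42-fold. Ccl5, a T cell chemokine, rose by 1.74, from a background-level mean of 3.75 to 4.43 on day 24 and 6.55 on day 32. Ccl24 and Cxcl12 fell (log2 difference -1.56 ± 0.09 and log2 difference -1.44 ± 0.11). Across the chemokine list 6 rose and 5 fell of 15 tested. The immunoproteasome subunits Psmb8, Psmb9 and Psmb10 rose 2.31-fold, 2.34-fold and 2.54-fold, while over 45 proteasome genes 16 rose and 8 fell (median 0.06). Markers of lymphoid follicles were highest on day 32 replicate 1. The mean of the 6 measured was 7.29 there, 4.44, 4.92 and 4.66 on the arrays of day 24, 3.37 and 3.47 on the other arrays of day 32 and 3.35 to 3.99 before weaning, so that all arrays of day 24 also lay above those before it. Without that array the difference of Cd79b, a B cell receptor component, was 0.80 in place of 1.47, and that of Cxcl13, the follicle chemokine, 0.35 in place of 1.25. Jchain, the joining chain of secreted antibodies made by plasma cells, ran from 7.71 on day 24 to 11.25 on day 32 after 2.43 before weaning.

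Ttr, F10, Fga and Spp2, plasma proteins known mainly from the liver, fell. Ttr, the carrier of thyroxine and retinol-binding protein, ranged from 11.71 to 12.69 (median 12.14) before weaning and from 5.82 to 6.85 (median 5.90) after it. It fell 68.3-fold (log2 difference -6.09 ± 0.10). F10, clotting factor X, Fga, a fibrinogen chain, and Spp2, a secreted phosphoprotein, had log2 differences of -4.63 ± 0.13, -3.21 ± 0.10 and -5.20 ± 0.15, and means after weaning under the array medians. Albumin (Alb) lay at 2.91 to 3.62 on all 18 arrays. Apoh, too dim to be tested, went the other way, at 3.40 to 3.78 before and 3.88 to 4.74 after weaning. The complement and clotting list had 4 rises and 6 falls of 15 tested.

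In protection against peroxides the glutathione peroxidases moved in opposite directions. Gpx3, the secreted form, had log2 levels of 13.18 to 13.38 before weaning (median 13.28) and of 8.01 to 8.95 after it (median 8.26). It fell 30.7-fold (log2 difference -4.94 ± 0.10, limma adjusted p = 6.81e-18). Gpx2, the gastrointestinal form, stood between 6.92 and 8.34 on the arrays before weaning (median 7.95) and between 9.89 and 11.88 on those after it (median 11.46). It rose 10.8-fold (log2 difference 3.43 ± 0.25, limma adjusted p = 7.86e-10), and Gpx4, the form that reduces lipid peroxides, fell 2.07-fold. Gsr, which regenerates glutathione, rose 2.76-fold and Cat, catalase, fell 2.96-fold. The antioxidant list as a whole had 11 rises and 14 falls in 30 genes (median -0.06). In detoxification, Gsta2, a glutathione transferase, ranged from 8.71 to 9.62 (median 9.29) before weaning and from 2.53 to 3.16 (median 2.61) after it. Its log2 difference was -6.47 ± 0.11, to a mean after weaning under the array medians, and Cryz, a quinone reductase, fell 38.5-fold.

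Housekeeping complexes differed by small amounts. Cytosolic ribosomal protein genes fell in 26 of 40 and rose in 2 (median -0.21), mitochondrial ribosomal protein genes rose in 37 of 76 and fell in 8 (median 0.18), and oxidative phosphorylation subunits rose in 31 of 70 and fell in 11 (median 0.13). No member of these 3 lists reached 2-fold, against 19.1% of all genes tested, and their shares of called genes, 70%, 59.2% and 60%, lay under the 72.9% of all genes. Genes of ER chaperones and the unfolded protein response rose in 21 of 36 and fell in 5 (median 0.31). Those of secretory cells led, with Agr2, a disulfide isomerase of goblet cells, at 2.01, Bhlha15, a factor of secretory cells, at 1.99 and Ern2, the epithelial form of the IRE1 sensor, at 1.87; Ddit3, a factor of the stress response, fell (log2 difference -1.16 ± 0.09). Aminoacyl-tRNA synthetases showed 9 rises and 5 falls of 27.

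Among nuclear regulators, 60 of 99 tested genes named Zfp fell and 11 rose (median -0.37), 11 of the falls reaching 2-fold, a share of 11.1% against 11.5% of all genes. Histone and DNA modifying enzymes fell in 32 of 68 and rose in 10 (median -0.16), with 47.1% lower against 41.9% of all genes and 61.8% called against 72.9%. Dnmt3a, which sets new DNA methylation, had log2 levels of 7.00 to 7.95 before weaning (median 7.50) and of 5.14 to 5.82 after it (median 5.56). It fell 3.80-fold (log2 difference -1.93 ± 0.09), and Tet2, which oxidises methylated cytosine, fell 3.04-fold. The Y-linked Kdm5d was called higher (log2 difference 2.07 ± 0.69, limma adjusted p = 0.0123), with the sexes unequal between the stages as given above. The clock genes fell in 9 of 14 and rose in 3 (median -0.54). Per2, Cry2 and Tef, repressors and output of the clock, fell 5.94-fold, 2.67-fold and 3.40-fold, and the activator Arntl rose 3.63-fold (log2 difference 1.86 ± 0.11). The sample titles give no time of day of collection, and its part in these clock differences was not tested.

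Of the enteroendocrine hormones and granins 6 fell and 3 rose in 14 tested, and the 42.9% that fell lay near the 41.9% of all genes. Slc18a1, the amine transporter of serotonin-secreting cells, fell 4.04-fold (log2 difference -2.02 ± 0.06), Tac1, the substance P precursor, rose (log2 difference 0.46 ± 0.07), and Sst, somatostatin, differed by 0.23 (limma adjusted p = 0.0345), with 7.40 on day 24 and 6.65 on day 32. None of 19 tuft cell genes with a probe set reached the level needed for a test.

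The mean after weaning joined ages that were not alike. Day 32 differed from day 24 in 1062 of 8621 genes (12.3%), 525 higher (6.09%) and 537 lower (6.23%), whereas the 4 ages before weaning differed among themselves in 107 (1.24%) by limma's F test. Among called genes with a stage difference of at least 1 on the log2 scale, the gap between days 24 and 32 was largest relative to the stage difference in Gip, Fam151a, Slc2a2, Ccl11, Slc7a8 and Slc9a3; gaps of greater absolute size occurred in other genes, such as Lct. Gip, the hormone of K cells of the proximal intestine, averaged 7.61 before weaning, 7.92 ± 0.35 for day 24 and 4.38 ± 1.03 for day 32 (SD over 3 arrays). Its stage difference was -1.46 (limma adjusted p = 4.94e-06), and with day 24 alone after weaning it was 0.30 (limma adjusted p = 0.332). Slc2a2, the basolateral glucose and fructose carrier, averaged 8.38 before weaning, 8.0 on day 24 and 4.34 on day 32. Fam151a averaged 3.74 before weaning, 8.07 on day 24 and 3.89 on day 32. So Fam151a was high on day 24 and near its suckling level on day 32. Slc7a8, a basolateral amino acid exchanger, averaged 7.08 before weaning, 6.79 on day 24 and 5.19 on day 32. Ccl11, the chemokine of eosinophils, averaged 6.37 before weaning, 6.01 on day 24 and 3.92 on day 32. In both, day 24 lay near the suckling mean and day 32 below it. Slc9a3, a sodium-proton exchanger of the brush border, averaged 5.68 before weaning, 7.58 on day 24 and 5.98 on day 32. Lct, the lactase, averaged 11.24 before weaning, 9.60 on day 24 and 3.41 on day 32. Fabp1, the fatty acid binder of the proximal intestine, averaged 11.12 before weaning, 8.08 on day 24 and 4.36 on day 32. Fabp1 and Lct were thus lower on day 24 than during suckling, and lower again on day 32.

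Gata4, a factor of the proximal small intestine, was likewise lower on day 32 than on day 24. Unlike Fabp1 and Lct, Gata4 was not below its suckling levels on day 24. It stood at 6.85, 6.10 and 5.76 on the 3 arrays of day 24 and at 4.41, 4.62 and 3.52 on those of day 32, against 5.05 to 6.25 before weaning, and its stage difference of -0.32 did not pass the test (limma adjusted p = 0.0741). Lct on the same day 24 arrays was 10.77, 9.54 and 8.49, in the same order of arrays as Gata4. The other proximal markers, Pdx1 and Onecut2, lay at 2.88 to 3.57 and 2.34 to 2.67 on all arrays, under the array medians. Of the colon markers, Car1 stood at 5.78 and 6.81 on day 32 replicates 2 and 3 and at 2.79 to 3.37 on the other 16 arrays, while Slc26a3 lay at 8.36 to 9.50 on all 18. The 3 arrays of day 24 also had the highest 18S signal of all. The part of these marker and 18S differences in the results was not tested.

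**Figure D5:**
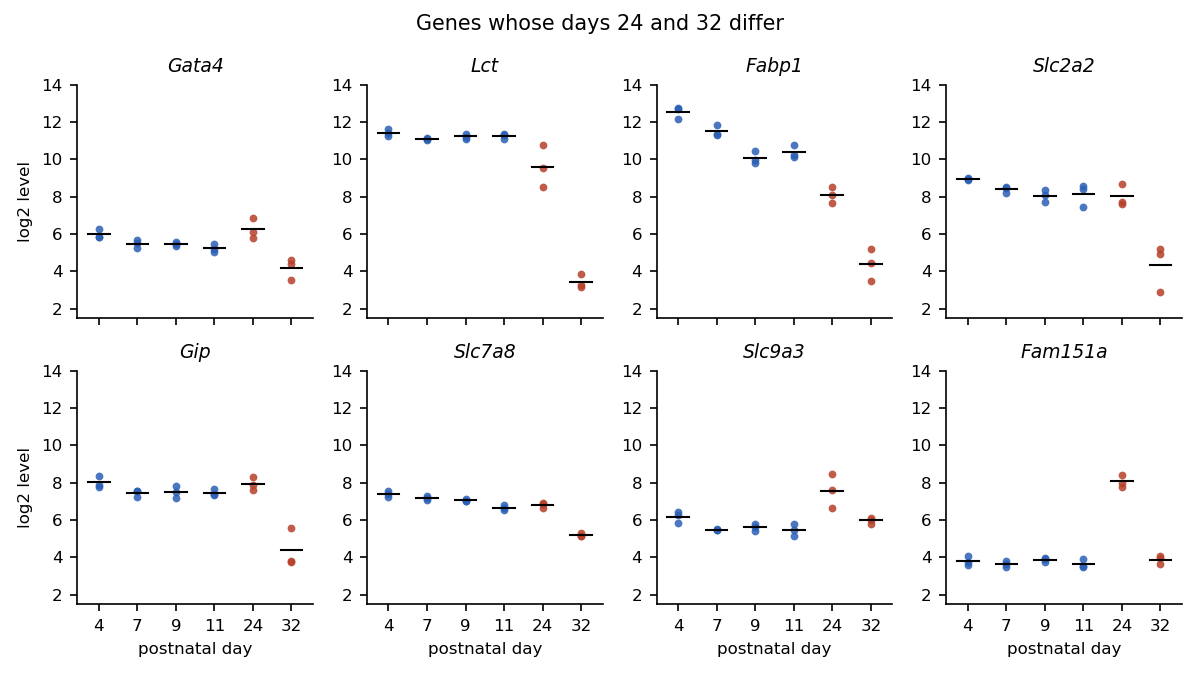
Log2 level on each of the 3 arrays of each age (points; blue before and red after weaning) with the mean of the age (bar) for 8 genes whose days 24 and 32 differ. Gata4, Lct, Fabp1, Slc2a2, Gip, Slc7a8, Slc9a3 and Fam151a are all lower on day 32 than on day 24.

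Other large rises and falls lay outside the lists. Fam3b, a secreted cytokine-like protein, stood between 3.07 and 3.74 on the arrays before weaning (median 3.46) and between 8.44 and 9.47 on those after it (median 9.14). Its log2 difference was 5.68 ± 0.12, and that of Rdh9, a retinol dehydrogenase, was 5.39 ± 0.14, both from means before weaning under the array medians. Defa39, an alpha-defensin of Paneth cells, rose 52.0-fold (5.04 to 8.91 before and 12.15 to 12.95 after weaning), though probe sets of near-identical defensins can read each other. The same applies to the lysozymes, with Lyz1, of Paneth cells, at 3.75 and Lyz2, of macrophages, at 3.62. Adipoq, made by fat cells, rose by 5.44 from a background level, and the 4 measured adipocyte markers averaged 5.77 to 7.24 before and 7.26 to 8.70 after weaning, with Cidec among them lower (log2 difference -1.33); attached fat and its part in such genes was not tested. On the falling side, Hyal5, a hyaluronidase known from sperm, ranged from 7.66 to 8.67 (median 8.25) before weaning and from 2.21 to 2.84 (median 2.49) after it. Its log2 difference was -5.71 ± 0.12. Those of Tdrp and of Abca13, an ATP-binding cassette protein, were -6.10 ± 0.09 and -4.76 ± 0.11, and all 3 genes lay under the array medians after weaning.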

How the data were processed

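Affymetrix GeneChip arrays read the ileum of 18 mice, 3 at each of 6 ages. The authors deposited log2 levels without detection calls, for 45101 probe sets including 64 controls. Their summary method was RMA, per the submitters' processing notes, which corrects background and equalises the distributions of the arrays. A platform annotation gave 34945 probe sets a single symbol, 932 several symbols, and did not list 9211.

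Of several probe sets the brightest by mean level represented a gene, which was tested if that probe set reached log2 6 on at least 3 arrays. Limma 3.58.1 in R 4.3.3 (lmFit, eBayes) was fitted with age as a factor of 6 levels, leaving 12 residual degrees of freedom and a median residual SD of 0.176. Benjamini-Hochberg adjustment ran over all 8621 genes. The mice are labelled as individuals; the number of arrays limits the precision. On simulated data for this comparison with 8621 genes the fit recovered 80%, 98%, 100% and 100% of log2 differences of 0.5, 1, 2 and 4, with 7 false calls among 8421 unchanged genes. In that simulation 50 genes were changed at each size, whereas 6283 genes were called in the data. Its noise was drawn independently for each gene and array, without differences between ages, sexes or control signals. These rates therefore cannot be carried over to the data. Promoter letters were matched exactly.

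The comparison, the 39 gene lists and the rule for named genes were chosen with earlier results of these data known. The rule took, per list, up to 2 called rises and 2 called falls of largest size, the 20 largest rises and 20 largest falls without overlap of arrays, 6 genes with unlike ages after weaning and set sentinels, of which Fut2 was not tested. Other members named in the text were chosen after their values were seen. Lists share members (Cubn, Rbp2, Hmox1 and others) and were described by counts and medians, with no set test. Alternatives covered the filter, probe set choice, normalization, fit options, array properties and leaving out arrays or ages.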

Additional observations from a re-analysis of the deposited data

Results flagged for a closer look

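Among the 6 arrays after weaning, 17 of 180 named genes had an array that stood apart from the others by Dixon's criterion, which flags about 1 in 20 groups by chance. In 11 of the 17 the array was day 24 replicate 1. On it Arg2 was high at 9.163, while B3gnt7 was low at 4.977, Car4 at 6.509, Gmds at 9.858, Gpx2 at 9.895, Gsr at 8.369, Hk2 at 7.382, Reg3g at 12.53, Saa1 at 4.68, Tars at 8.013 and Yars at 6.7. Without that array the difference of Saa1 was 7.92 in place of 6.85, and that of B3galt5 3.68 in place of 3.00. Day 24 replicate 2, the array with the female pattern after weaning, stood apart with Xist at 8.68 and Eif2s3y at 2.532, and without it their differences were -4.34 in place of -3.63 and 3.49 in place of 2.70. The others were Rpl27a at 8.947 on day 24 replicate 3, Mamdc4 at 4.175 on day 32 replicate 1, and Renbp at 5.519 and Zfp711 at 3.304 on day 32 replicate 3.

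Outside the named genes, the poly-A spike controls averaged 5.532 after weaning against 4.05 ± 0.26 before it (SD, 12 arrays), and the 18S ribosomal RNA probe sets 9.036 against 6.15 ± 0.89. Of probe sets without a gene name, 1446368_at averaged 9.393 after weaning against 2.45 before it, and 1417867_at 9.638 against 3.77.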

How the results depend on the processing

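The counts of 2675 higher and 3608 lower genes stayed within 1.5 times under all alternatives but 3. Without a filter 5248 of 18193 genes were called higher, with a filter at log2 8 the counts were 1275 and 1583 of 3739 genes, and with probe sets averaged per gene 2345 of 5953 genes were called lower; the number of genes tested changes with each. Leaving out each array in turn gave 2520 to 2730 higher and 3474 to 3649 lower. Medians of lists close to 0 turned sign. Purine breakdown reached -0.0065 with the filter at log2 8, -0.018 with array weights, -0.011 with the Xist level as a covariate, -0.0081 without the arrays sharing a mouse number, and -0.016 to 0.055 when each array was left out. The tRNA synthetases reached -0.0039 with the filter at log2 8 and -0.026 on male-pattern arrays alone. The antioxidant list reached 0.082 with the filter at log2 8 and 0.0061 with cyclic loess. The sugar list reached 0.036 with the mean of probe sets, 0.018 with cyclic loess and 0.059 without day 32, and the enteroendocrine list 0.079 without day 32. Chemokines reached -0.13 with the hybridization group as a block and -0.11 in its higher group alone. The complement list reached 0.075 and 0.054 in these, 0.063 with the Xist covariate and 0.036 on male-pattern arrays. Without day 24, Sst turned to -0.15 and St6gal1 to 0.56, as they did without the arrays of highest 18S signal, which are those of day 24; St6gal1 ran from -0.32 to 0.021 when each array was left out. Without day 32, Gip turned to 0.30, Gata4 to 0.70 and Cdx2 to 0.12. Tfe3, which was not called, turned to 0.052 with quantile normalization, 0.051 with cyclic loess, 0.13 without day 32, 0.011 with the Xist covariate, 0.051 on male-pattern arrays and ran from -0.044 to 0.027 when each array was left out. Rpl27a turned to -0.051 with the hybridization block. The Y-linked Kdm5d and Eif2s3y turned to -0.44 and -0.93 with the Xist covariate and to -0.36 each on male-pattern arrays, which hold both stages of 1 sex. The cause of the other changes was not tested. Over named genes and alternatives 9195 values kept direction and side of the threshold, 92 lost the call, 12 gained it and 21 turned sign. Of those that lost it, 26 were of Npepps, 15 of Odc1 and 12 of Sst. No paired analysis was possible because replicate numbers are an order within an age and no label ties them across ages. Levels near the array medians limit the folds of dim genes. The male-pattern arrays, the arrays sharing a mouse number (day 7 replicate 3 and day 9 replicate 2) and those of highest 18S signal were alternatives chosen after seeing the data.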

Other observations

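Probe sets outside the tested genes were fitted together with them, 14075 in all. Of 729 without a gene name, 204 rose and 342 fell (74.9%), 57 and 145 by at least 2-fold. The unnamed probe set 1423858_a_at fell from 10.42 to 5.18 and 1441341_at from 8.83 to 3.93. Of 2938 genes with several probe sets past the filter, 205 had probe sets called in opposite directions, and in 0 of them did both differ by at least 1 on the log2 scale.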
